A study of Mus musculus with 6 samples.

Results

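Of the clustered miRNAs miR-23, miR-27 and miR-24 the array held 7 probes, chosen by probe name from its 599 mouse miRNA probes. These were mmu-miR-23a, mmu-miR-23b, mmu-miR-27a, mmu-miR-27b and mmu-miR-24, the guide strands that are loaded for silencing, and the passenger strands mmu-miR-24-2* and mmu-miR-27b*, where the star is the older mark for the less used strand of a hairpin. The cells were arteriolar smooth muscle cells from mouse kidney, a primary line at passage 7 of the renin cell lineage and of mixed 129Sv/C57Bl6 strain. The 3 control cultures were untreated, with no vehicle named. The 3 forskolin cultures received 10 µM forskolin, which activates adenylyl cyclase, with 100 µM IBMX, which blocks the breakdown of cyclic AMP, for 24 h, and then 10 µM forskolin a second time in the last 30 min of culture. The effects of forskolin and IBMX therefore cannot be told apart. The purpose given in the series title was to induce renin, and each culture was grown and harvested separately, per the design text. All 7 probes stood above the empty spots in all 6 samples and were among the 167 probes tested.

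Hairpins of these 3 kinds lie together in the genome in 2 copies, called the a and b clusters, and each copy is transcribed as a common precursor before its hairpins are cut out. In blood vessels miR-23 and miR-27 are known as regulators of endothelial sprouting. In vascular smooth muscle, miR-23b is known from rat as a brake on the switch from the contractile to the growing state, and miR-24 is known from human cells to lower Trb3 downstream of platelet-derived growth factor. miR-27 is known in fat cells as a repressor of Pparg.

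The target sequences of the probes, as the array files give them, are shown to make clear which probes can be told apart. They run 5′ to 3′, and capitals mark the seed, bases 2 to 8, which does most of the target pairing.
miR-23a: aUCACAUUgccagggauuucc
miR-23b: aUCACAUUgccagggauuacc
miR-27a: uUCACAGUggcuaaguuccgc
miR-27b: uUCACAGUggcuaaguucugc
miR-24: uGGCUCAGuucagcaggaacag
miR-24-2*: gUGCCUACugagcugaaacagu
miR-24-1*: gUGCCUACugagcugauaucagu
miR-27b*: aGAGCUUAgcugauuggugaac
miR-27a*: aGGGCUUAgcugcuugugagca
The members fall into 3 guide-strand seeds, UCACAUU for miR-23, UCACAGU for miR-27 and GGCUCAG for miR-24. Counted from the 5′ end, miR-23a and miR-23b differ by U19A alone, and miR-27a and miR-27b by C19U, so in both pairs the a and b forms share their seed. A probe for an a form can bind the b form, and the members of a pair are not independent measurements. miR-24 has the same sequence from both clusters, so its probe measures their sum. The passenger strands differ more between clusters, and miR-24-2* marks the a cluster and miR-27b* the b cluster.

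Of the 7 target sequences, 6 equal a RefSeq mature entry and all 7 lie within a RefSeq hairpin, in build GRCm38.p6. The a cluster spans 404 bases on the plus strand of chromosome 8, with miR-23a at chr8:84208563-84208583, miR-27a at chr8:84208727-84208747, miR-24-2* at chr8:84208839-84208860 and miR-24 at chr8:84208875-84208896. No other annotated gene overlaps its miR-23a and miR-27a hairpins, and that of miR-24-2 overlaps Mir3074-2. The b cluster spans 792 bases on the plus strand of chromosome 13, inside the bounds of the Aopep gene, which encodes an aminopeptidase. There miR-23b lies at chr13:63300529-63300549, miR-27b* at chr13:63300718-63300739, miR-27b at chr13:63300760-63300780 and the second copy of miR-24 at chr13:63301251-63301272. The hairpins for which both strands were measured above background are shown because the strand comparison rests on them, with both measured strands in capitals.
Mir24-2: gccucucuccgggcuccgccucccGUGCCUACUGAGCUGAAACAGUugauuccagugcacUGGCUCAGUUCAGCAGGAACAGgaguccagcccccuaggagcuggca
Mir27b: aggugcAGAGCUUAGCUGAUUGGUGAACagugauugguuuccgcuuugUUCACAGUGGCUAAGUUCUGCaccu

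Samples carried 1 dye each, with 2 Cy3 controls against 1 Cy3 forskolin sample, so the dyes were unbalanced. Samples of the same replicate number carried opposite dyes. The control was Cy3 and the forskolin sample Cy5 in replicates 1 and 3, and the reverse held in replicate 2. Empty spots read 131.2 to 200.1 in the Cy3 samples and 31.6 to 34.9 in the Cy5 samples. Probes detected numbered 162 to 225 in 5 samples and 585 in forskolin 2, where nearly every probe passed the detection limit. The smooth muscle markers miR-143, miR-145 and miR-145* were detected in all 6 samples. The endothelial markers miR-126-3p and miR-126-5p were detected in forskolin 2 alone, as were 5 of 6 blood and 5 of 6 epithelial markers. The remaining blood marker, miR-142-3p, was detected in 1 control and 1 forskolin sample. The remaining epithelial marker, miR-205, was detected in 1 control and 2 forskolin samples. Of the kidney tubule markers, miR-192 and miR-194 were detected in 3 of 3 forskolin and 1 of 3 control samples, with log2 fold changes of 0.12 and 0.33 that did not pass the test, and miR-204 in forskolin 2 alone. The part of other cell types in the values below was not tested. In bulk RNA, fewer cells of a type and less of a miRNA per cell cannot be told apart. Precision throughout was limited by the number of arrays.

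None of the 7 members passed an adjusted p of 0.05 between forskolin and control cultures in limma, while 10 of the 167 tested probes did, 5.99% (4 higher, 2.4%, and 6 lower, 3.59%). Their median log2 fold change was -0.02, beside -0.01 over all tested probes, and the median of its absolute size was 0.09, beside 0.25. None had a log2 fold change over 1 in size, as 19 of all tested probes had. None passed an unadjusted p of 0.05 either, which 32 of 167 tested probes, 19.2%, did. With the replicate number as a block, 0 of 7 passed the adjusted threshold, beside 18% of tested probes, and miR-27b* passed the unadjusted one, beside 24.6%. Forskolin and control values overlapped for all 7 members, while 23.4% of tested probes had groups that did not overlap.

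**Figure D1:**
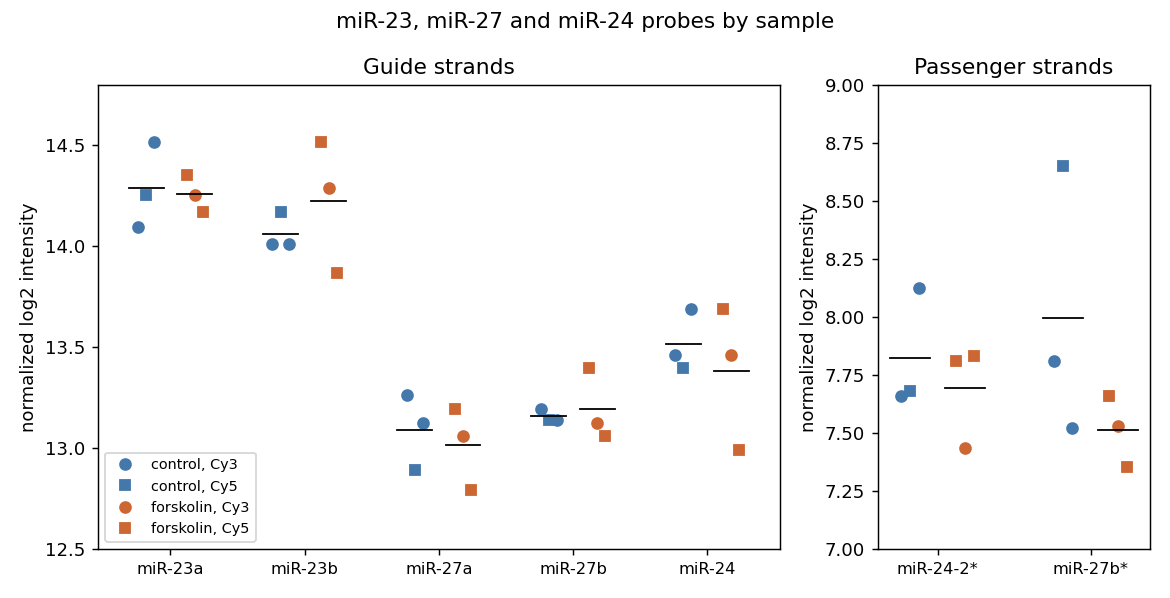
Normalized log2 intensity of the 5 guide-strand probes (left) and the 2 passenger-strand probes (right), a point per sample, coloured by group and shaped by dye, with group means as lines. The vertical axes are cropped and differ between the panels. Forskolin and control values overlap for every probe, and control 2 stands highest for miR-27b* at 8.65.

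Among the guide strands of the a cluster, miR-23a read a normalized log2 intensity of 14.10, 14.25 and 14.52 in control 1 to 3. In forskolin 1 to 3 it read 14.36, 14.25 and 14.17. The forskolin values lie inside the control range, and control 2 and forskolin 2 hold the same value because normalization gives probes of equal rank the same value. The log2 fold change of miR-23a was -0.02, with a standard error (SE) of 0.22, an adjusted p of 0.963 in limma and a 95% interval from -0.54 to 0.50. miR-27a read 13.26, 12.89 and 13.12 in control 1 to 3 and 13.19, 13.06 and 12.79 in forskolin 1 to 3. Its lowest control and its lowest forskolin sample were both Cy5 samples. Its log2 fold change was -0.02, SE 0.22, with an interval from -0.54 to 0.51.

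Among the guide strands of the b cluster, miR-23b read 14.01, 14.17 and 14.01 in control 1 to 3 and 14.52, 14.29 and 13.87 in forskolin 1 to 3 on the normalized log2 scale. Forskolin samples held both its highest and its lowest value by the mean of the spots, while by the median of the spots its lowest value was that of control 1, at 14.04. Its log2 fold change was 0.15, SE 0.25, at an adjusted p of 0.795 in limma, with a 95% interval from -0.44 to 0.74. miR-27b read 13.19, 13.14 and 13.14 in control 1 to 3, the narrowest control spread of the 7 members with an SD of 0.03. Control 2 and control 3 again hold the same value through equal rank, and in the authors' deposited series table they read 7283 and 8998. In forskolin 1 to 3 miR-27b read 13.40, 13.12 and 13.06, on both sides of the controls. Its log2 fold change was 0.02, SE 0.21, with an interval from -0.47 to 0.52, or 0.721- to 1.43-fold.

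miR-24, the guide strand that both clusters make, read 13.46, 13.40 and 13.69 in control 1 to 3. It read 13.69, 13.46 and 12.99 in forskolin 1 to 3. Forskolin 3 was its lowest sample, and the other forskolin samples lay within the control range. The log2 fold change of miR-24 was -0.09, SE 0.26, at an adjusted p of 0.903 in limma, with a 95% interval from -0.69 to 0.52. The 95% intervals of all 5 guide strands contained 0 and lay between log2 fold changes of -1 and 1.

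By replicate number, the guide strands did not keep 1 direction. Each pair crossed the dyes, so the differences within pairs hold treatment and dye together. In replicate 1, forskolin minus control was 0.26 for miR-23a, 0.51 for miR-23b, 0.23 for miR-24 and 0.21 for miR-27b on the log2 scale, and -0.07 for miR-27a. In replicate 3 all 5 were below 0, from -0.70 for miR-24 to -0.08 for miR-27b. Replicate 2 lay between -0.02 for miR-27b and 0.17 for miR-27a. Of the 7 members, miR-27b* alone had the same sign in all 3 replicates, as 50.9% of tested probes had.

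**Figure D2:**
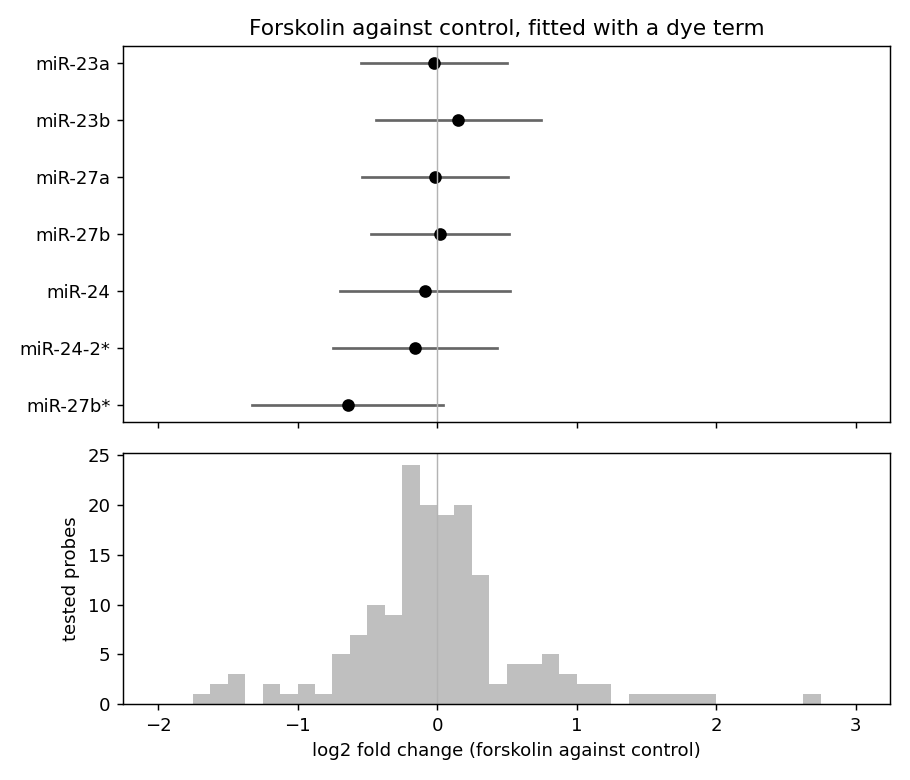
Log2 fold change of forskolin against control cultures for the 7 members with 95% intervals from the limma fit (top), and the same quantity for all 167 tested probes as a histogram (bottom). All 7 intervals cross 0, and miR-27b* at -0.64 lies farthest from it.

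The passenger strand of the a cluster, miR-24-2*, was dim. It read 147.8, 21.6 and 560.3 intensity units over the empty spots in control 1 to 3, and 116.5, 168.7 and 154.8 in forskolin 1 to 3. All of these were over 10 SD of the empty spots, and control 3 was the brightest on each of its 5 spots, from 501.0 to 596.4. After normalization miR-24-2* read 7.66, 7.68 and 8.12 in controls and 7.81, 7.44 and 7.83 in forskolin cultures. In the authors' deposited series table control 3 was also the highest, at 178 against 101 to 149 in the other samples. The log2 fold change was -0.16, SE 0.25, at an adjusted p of 0.793 in limma. Within the Cy3 samples forskolin minus control was -0.46 and within the Cy5 samples 0.14, so the dyes differed in sign. The corresponding strand of the b cluster, miR-24-1*, shares its first 16 bases with miR-24-2* and passed the detection limit in forskolin 2 alone. There it stood at only 4.8 SD of the empty spots, in the sample where nearly every probe passed.

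The passenger strand of the b cluster, miR-27b*, had the lowest log2 fold change of the 7, -0.64, SE 0.29, a 1.56-fold lower level that missed the threshold at an adjusted p of 0.306 in limma. Its 95% interval ran from -1.32 to 0.04, and 130 of the 167 tested probes had a smaller absolute log2 fold change. miR-27b* read 7.81, 8.65 and 7.52 in control 1 to 3 and 7.66, 7.53 and 7.35 in forskolin 1 to 3. Control 2 was the highest, and control 3 lay below forskolin 1 and forskolin 2. The adjusted p was 0.149 with the replicate block.

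The value of control 2 rested on 1 of its 5 spots of miR-27b*. That spot read 220.8 over the empty spots, and the other 4 read 22.0 to 34.9. The same spot position was also the highest of the 5 in forskolin 2, at 276.4 against 191.6 to 196.4 in the others. By the median of the 5 spots, miR-27b* in control 2 read 7.88 in place of 8.65, and the log2 fold change was -0.28 at an adjusted p of 0.503 in limma. It was -0.21 at an adjusted p of 0.698 in the authors' deposited series table and -0.13 without control 2. By the median of the spots forskolin was lower in 3 of 3 replicates, by -0.18, -0.37 and -0.19 on the log2 scale. The same direction, lower in 3 of 3 by the mean of the spots, was held by 25.7% of tested probes. The other strand of the a-cluster hairpin, miR-27a*, differs from miR-27b* at 8 of 22 positions and passed the detection limit in forskolin 2 alone. There it stood at only 3.7 SD of the empty spots, in the sample where nearly every probe passed.

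**Figure D3:**
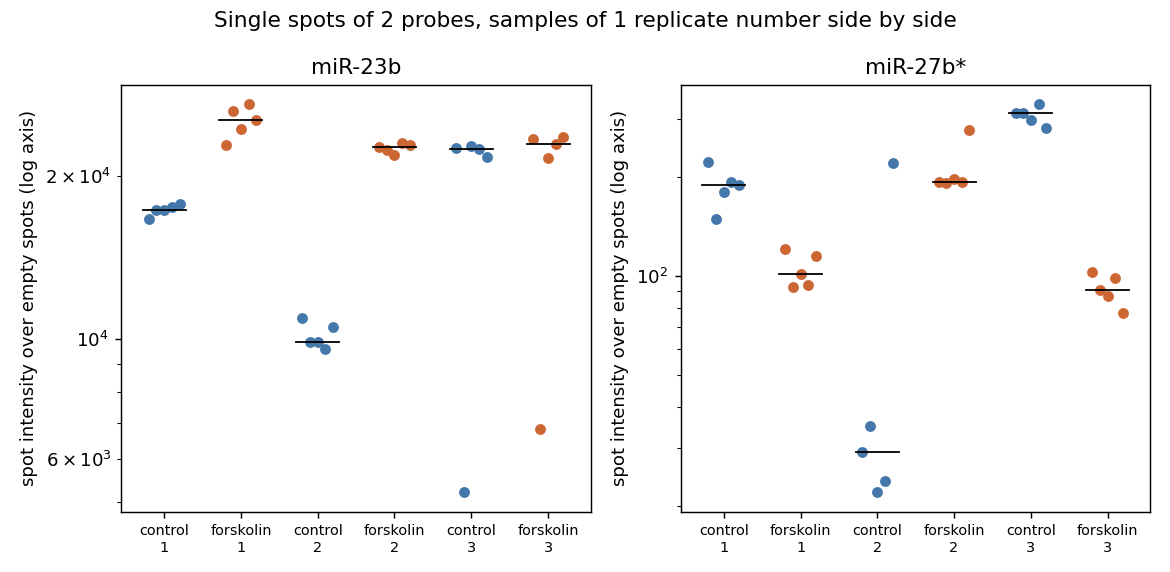
Intensity over the empty spots of each of the 5 spots of miR-23b (left) and miR-27b* (right) on a log axis, by sample, with the median of the spots as a line. The second miR-23b spot reads low in control 3 and in forskolin 3, and the last miR-27b* spot reads 220.8 in control 2 where the other 4 read 22.0 to 34.9.

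miR-23b also had an outlying spot, the second of its 5, in both samples of replicate 3. It read 5216 in control 3, where the others read 21727 to 22738, and 6827 in forskolin 3, where the others read 21588 to 23611. Of the 835 spots of tested probes in a sample, 6 to 27 lay over 1 log2 unit from the median of their probe, with the most in control 2. Among the members there were 3 such spots, those of miR-23b in control 3 and forskolin 3 and of miR-27b* in control 2. The median of the spots raised miR-23b from 14.01 to 14.51 in control 3 and from 13.87 to 14.13 in forskolin 3. Its log2 fold change was then 0.12, at an adjusted p of 0.803 in limma.

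Whether the a and b clusters responded differently was asked within each sample, as the log2 difference of the b probe minus the a probe, since the brightness of 2 probes is not comparable in itself. There were 4 such comparisons, including those of the strands, and with 3 samples a group the exact permutation test cannot go below 0.10. miR-23b minus miR-23a was -0.23 ± 0.25 (SD, n = 3) among controls and -0.03 ± 0.24 among forskolin cultures. The difference of 0.19 was smaller than the spread between samples of a group, with a two-sided exact permutation p of 0.40, or 0.533 adjusted over the 4 comparisons. By replicate number, where each pair crossed the dyes, forskolin minus control was 0.25, 0.12 and 0.20. That was above 0 in 3 of 3 pairs, with an SD of 0.07 over the pairs. With 3 pairs a two-sided exact sign-flip test cannot go below 0.25, which is the p it gave, or 0.50 adjusted over the 4 comparisons. These values include the outlying spot of miR-23b, and the difference was 0.05 without control 3 and 0.33 without forskolin 3.

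By the median of the spots, miR-23b minus miR-23a was -0.09, -0.13 and -0.05 in control 1 to 3. It was 0.19, 0.03 and 0.09 in forskolin 1 to 3, so the groups no longer overlapped. The difference was again 0.19, with the smallest p that the exact permutation test can give here, 0.10, and 0.40 adjusted over the 4 comparisons. It was above 0 in 3 of 3 pairs, at 0.28, 0.16 and 0.14. It was above 0 within the Cy3 samples, at 0.10, and within the Cy5 samples, at 0.27. Before normalization the same ratio of the middle spots was -0.024, -0.075 and -0.0023 in control 1 to 3 and 0.059, 0.038 and 0.037 in forskolin 1 to 3. The groups again did not overlap, but the difference was 0.08, or 1.06-fold. In the authors' deposited series table it was also 0.08, with controls from -0.04 to -0.01 and forskolin from 0.05 to 0.06. In these 3 versions the balance of miR-23b and miR-23a kept its direction, its size differed, and it did not pass the test.

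For miR-27 the same difference followed the dye. miR-27b minus miR-27a was -0.07, 0.02 and 0.06 in the Cy3 samples control 1, control 3 and forskolin 2. In the Cy5 samples control 2, forskolin 1 and forskolin 3 it was 0.25, 0.21 and 0.27. Every Cy5 sample was above every Cy3 sample, whatever its treatment. The group means were 0.07 ± 0.17 (SD, n = 3) among controls and 0.18 ± 0.11 among forskolin cultures, a difference of 0.11 with an exact permutation p of 0.30, or 0.533 adjusted. Within the Cy3 samples forskolin minus control was 0.09 and within the Cy5 samples -0.01.

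**Figure D4:**
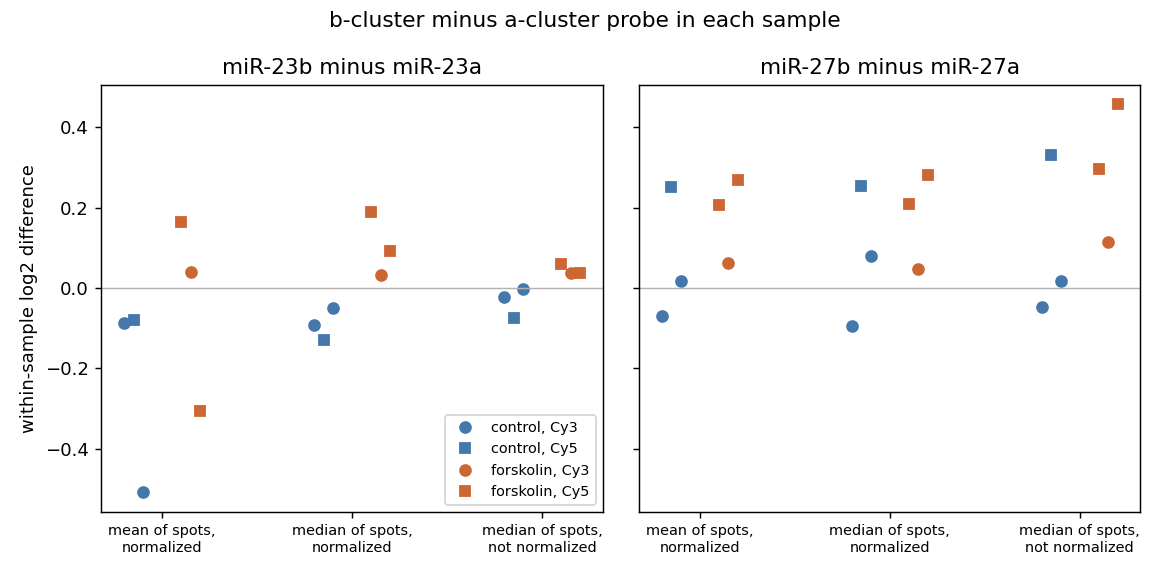
Within-sample log2 difference of miR-23b minus miR-23a (left) and of miR-27b minus miR-27a (right), a point per sample, from the mean of the spots, the median of the spots, and the median of the spots before normalization. With the medians the miR-23 difference parts forskolin from control samples, while the miR-27 difference parts Cy5 from Cy3 samples in all 3 versions.

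The strands of the hairpins were compared in the same way. miR-27b* minus miR-27b was -5.38, -4.49 and -5.62 in control 1 to 3 and -5.74, -5.59 and -5.71 in forskolin 1 to 3 by the mean of the spots. The absolute size on this scale has no meaning, and the differences between samples changed with the processing. Control 2 was far above the rest in this version. By the middle spots before normalization control 2 was at -6.65, below control 1 at -5.64 and control 3 at -5.29. The group difference was -0.52, beside a pooled SD between samples of 0.43, with an exact permutation p of 0.20, or 0.533 adjusted. By the median of the spots it was -0.28, with control 2 at -5.27 and the other controls at -5.37 and -5.65, against -5.75, -5.61 and -5.75 in forskolin cultures. In the authors' deposited series table it was -0.52, with controls from -5.90 to -5.20 and forskolin from -6.14 to -5.96, groups that did not overlap, at the smallest possible exact permutation p of 0.10. Without control 2 the difference by the mean of the spots was -0.18. By replicate number it was below 0 in 3 of 3 pairs by the mean of the spots, at -0.36, -1.10 and -0.09, with an exact sign-flip p of 0.25, or 0.50 adjusted. Before normalization the ratio of the middle spots did not keep 1 direction, at -1.43, 0.55 and -1.60 by replicate number. There the ratio followed the dye, from -7.07 to -6.65 in the Cy5 samples and from -6.09 to -5.29 in the Cy3 samples. miR-24-2* minus miR-24 was -5.69 ± 0.12 (SD, n = 3) among controls and -5.69 ± 0.46 among forskolin cultures. That difference was 0.01 with an exact permutation p of 1. Since the miR-24 probe measures the sum of both clusters, this is not a comparison within 1 hairpin alone.

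Among the members, profiles over the 6 samples were closest for miR-27a and miR-27b, at a root mean square distance of 0.13 on the log2 scale after each probe was centred on its mean. miR-23b and miR-27b lay at 0.14, and miR-24 and miR-27a at 0.15. miR-23a and miR-23b lay at 0.22 by the mean of the spots and at 0.11 by the median, the closest pair of members there. miR-27b* lay farthest from the others by the mean of the spots, at 0.43 to 0.51. By the median of the spots it lay at 0.18 to 0.33, and miR-24-2* at 0.19 to 0.33. These distances are descriptions of 6 samples, 3 in each dye.

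Over all tested probes the nearest profiles to miR-23b were those of miR-181a, miR-10b* and miR-328, at 0.11, 0.11 and 0.12, beside a median distance of 0.34. That ranking is by the mean of the spots, with the outlying spots of miR-23b in control 3 and forskolin 3 included. Nearest to miR-24 were miR-22 at 0.12, miR-27a at 0.15 and miR-125b-5p at 0.15. Nearest to miR-27b were miR-26a, miR-181c and miR-331-3p, each at 0.10. miR-27b* had miR-486 at 0.15, miR-674* at 0.21 and miR-151-3p at 0.24, beside a median of 0.48, by the mean of the spots with the outlying spot included.

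A list of 26 other miRNAs of smooth muscle and vessels was set beside the clusters. Of these 20 were tested, 3 fell, beside 3.59% of all tested probes, and 0 rose, beside 2.4%. Their median log2 fold change was -0.32 beside -0.01 over all tested probes. With the replicate block 4 fell and 3 rose, beside 18% of tested probes called in either direction. The list was chosen with earlier results of these data known, so its counts and median are no test of such miRNAs. miR-17, of a cluster known to promote proliferation, fell by 1.58 on the log2 scale at an adjusted p of 0.0142 in limma. miR-92a, from the same transcript as miR-17, fell by 1.14 at an adjusted p of 0.0454. miR-222, known to promote smooth muscle proliferation, fell by 1.10 at an adjusted p of 0.0465, and its partner miR-221 had -0.94 at 0.0798, or 0.0147 with the block. Of 22 alternative fits miR-17 passed in 16, miR-222 in 9 and miR-92a in 6. None of the 3 passed without control 2, without forskolin 2, without both samples of replicate 1, with no normalization, with plain background subtraction or with all probes tested. Without control 2 miR-92a had -0.75. Without normalization miR-17 had -0.77, miR-222 -0.37 and miR-92a -0.26. miR-92a did not pass without any 1 of the 6 samples, and miR-222 passed in that series only without forskolin 1. In the fit of all 6 samples with the dye term, each of the 7 cluster members had a smaller log2 fold change in size than the 3 that fell. That did not hold without normalization, where miR-27b had 1.15 and miR-27a 1.07. Without forskolin 2, miR-27b* had -1.15 and miR-222 -0.92. The 3 that fell were named for their small p-values in these same data, so the comparison says nothing particular about the clusters.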

How the data were processed

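miRNAs of 6 samples were measured on arrays hybridised by a service provider (LC Sciences), per the labels. The scanner files deposited by the authors hold a mean intensity per spot in 1 dye, with 5 spots per probe and local background still included, per the file headers. The deposited series table holds 1 intensity per probe. Its log2 values correlated at 0.996 to 0.999 with those of the spot files after the empty spots were subtracted, so its background was removed. How it was normalized between samples is not given in the sources used here, and its column medians were 10, 11 and 8 in control 1 to 3 and 11, 11 and 10 in forskolin 1 to 3.

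Background was corrected over all spots by normexp (offset 50), and spots were averaged per probe, taken to log2 and quantile-normalized (limma 3.58.1, R 4.3.3). Fold changes therefore understate those of dim probes. A probe was detected if its mean exceeded that of the empty spots by 3 SD. Probes detected in all samples of a group were tested with lmFit and eBayes on treatment and dye, two-sided, with Benjamini-Hochberg adjustment over all of them at 0.05. Within-sample differences were tested by exact permutation, and by exact sign flips over the pairs. Neither of these tests adjusted for dye, and each pair crossed the dyes. The steps were tested on simulated data.

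Deviations from the group means correlated between samples of the same replicate number, at 0.397, 0.473 and 0.359 over 167 probes, so the numbers were taken as pairs, from these data. No correlation between samples of unlike number is given here for reference. The fit on treatment and dye and the exact permutation test did not use the pairs. Members and lists were chosen with earlier results of these data known. Probes named were the members, the other strands of their hairpins, the 3 nearest profiles of 4 members, and the 4 smallest p-values of the list. The use of middle spots before normalization, the removal of outlying spots and the dye term and sign-flip test for differences were chosen after seeing the data.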

Additional observations from a re-analysis of the deposited data

How the results depend on the processing

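The count of 0 members past the threshold held in 22 alternative fits, and the lowest adjusted p of a member in any of them was 0.149, with limma and the replicate block. The replicate block changed no adjusted call of a member, while calls over all tested probes went from 10 to 30 of 167. Signs of the log2 fold changes near 0 depended on the scaling. With arrays scaled to the 75th percentile miR-24 was at 0.11, miR-27a at 0.37 and miR-27b at 0.45, where the median of all tested probes was -0.22. With no normalization, where that median was 0.48, miR-23a was at 0.63, miR-23b at 0.72, miR-24 at 0.81, miR-24-2* at 0.32, miR-27a at 1.07, miR-27b at 1.15 and miR-27b* at 0.066. With cyclic loess miR-23b was at -0.17, miR-27a at 0.23 and miR-27b at 0.30. In the deposited series table miR-23b was at -0.082, miR-24 at 0.050, miR-27a at 0.29 and miR-27b at 0.37. The cause of these shifts was not tested.

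Leaving out 1 sample or both samples of a replicate gave ranges that crossed 0, except for miR-27b* from -1.15 to -0.13. They were -0.17 to 0.13 for miR-23a, -0.012 to 0.31 for miR-23b, -0.32 to 0.14 for miR-24, -0.46 to 0.14 for miR-24-2*, -0.13 to 0.10 for miR-27a and -0.059 to 0.095 for miR-27b. Leaving out both samples of replicate 2 could not be fitted with the dye term, since each group then held 1 dye. With samples left out, the difference in response, with no dye term, ranged from 0.050 to 0.33 for miR-23b minus miR-23a. It ranged from 0.031 to 0.26 for miR-27b minus miR-27a. The ranges were -0.74 to -0.18 for miR-27b* minus miR-27b and -0.26 to 0.18 for miR-24-2* minus miR-24. The 0.26 came without both samples of replicate 2, where treatment and dye cannot be told apart. The next highest value of miR-27b minus miR-27a was 0.21, without control 2. The difference in response of miR-27b* minus miR-27b was -1.13, and that of miR-24-2* minus miR-24 was -0.64. Both held without normalization and after scaling to the 75th percentile. The lowest signal over background of the members was 10.3 SD of the empty spots, for miR-24-2* in control 1, and the SE of miR-24-2*, 0.25, was below the median of all tested probes, 0.26.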
